A study of Homo sapiens with 10 samples.

Results

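AXIN2, NKD1, LEF1, TCF7, TCF7L2, RNF43, ZNRF3, DKK1, SP5 and LGR5 are genes of the canonical Wnt pathway that are either switched on by β-catenin or carry it to DNA. These 10 genes were taken by name, with earlier results of these data known, from the 58302 genes in the deposited RNA-Seq tables of human liver cancer cell lines. The study asked how the paraspeckle protein PSPC1 and the tyrosine kinase PTK6 act together in hepatocellular carcinoma, and it sequenced RNA from 10 libraries, 1 per condition. With no replicate libraries, conditions could not be tested, and the 95% intervals given here describe counting error alone, without the spread from culture to culture.

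When no Wnt ligand is bound, a cytoplasmic destruction complex built on AXIN marks β-catenin for degradation. When a Wnt protein binds a Frizzled receptor and its LRP co-receptor, the complex is held at the membrane, and β-catenin enters the nucleus and binds TCF7, LEF1, TCF7L1 or TCF7L2, the transcription factors that sit on Wnt target genes. Many of these targets damp the pathway again. AXIN2 rebuilds the destruction complex, NKD1 binds Dishevelled, RNF43 and ZNRF3 are ubiquitin ligases that take Frizzled receptors off the membrane, and DKK1 is a secreted protein that blocks the LRP co-receptors. SP5 is a zinc finger transcription factor and a direct target of β-catenin, and LGR5 is a receptor for R-spondins, the proteins that keep RNF43 and ZNRF3 away from Frizzled. In liver the pathway is known for setting the gene program of hepatocytes around the central vein, and mutations of β-catenin and of AXIN1 are frequent in hepatocellular carcinoma.

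SK-hep1 cells (SK-Hep1 in the labels) were mock control, or overexpressed PSPC1, PSPC1 with PTK6 (PSPC1/PTK6), PSPC1 with its tyrosine Y523 changed to phenylalanine (PSPC1-Y523F), or that mutant with PTK6 (PSPC1-Y523F/PTK6). Mahlavu cells were mock control, or overexpressed the C-terminal fragment of PSPC1 (PSPC1-CT131) or the same fragment with a mutated nuclear localization sequence (Mut-NLS-CT131). Huh-7 cells, which carried no added gene, were untreated or given 10 ng/ml hepatocyte growth factor (HGF) for 48 h. The added genes were expressed from plasmids. By the methods, full-length PSPC1 and the PSPC1 mutants were in pcDNA3.0 with an HA tag. PSPC1-CT131 was moved into an EGFP plasmid for microscopy, and PTK6 carried a Flag or His tag in the SK-hep1 experiments. The methods do not say which tags the sequenced cells carried. They describe stable clones, under G418 or zeocin, for the animal experiments. Whether a library came from 1 clone or from a pool is not given in the sources used here. PSPC1 had 0 reads in SK-hep1 mock and 7.01, 26.4, 2.28 and 70.9 FPKM in the PSPC1, PSPC1/PTK6, PSPC1-Y523F and, last, PSPC1-Y523F/PTK6 libraries, so its amount differed as well as its sequence. PTK6 was 4.79 FPKM in SK-hep1 mock, 16.7 FPKM in PSPC1/PTK6 and 10.5 FPKM in PSPC1-Y523F/PTK6. In Mahlavu cells PSPC1 was 47.3 FPKM in mock, and it was lower in the libraries labelled PSPC1-CT131 (30.8 FPKM) and Mut-NLS-CT131 (22.5 FPKM). The reads of PSPC1 therefore did not show an added fragment, and every direction given for these libraries rests on their labels. PTK6 moved there as well, from 8.95 FPKM in mock to 17.2 FPKM and 17.3 FPKM, and its part in the results was not tested.

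FPKM divides the reads of a gene by its length and by the size of the library, so levels of different genes can be set side by side for the lengths used. That length was 1466 bases for TCF7, of 10063 exonic bases, and 4132 bases for ZNRF3, of 6968. The order of genes within a library thus also depends on these lengths, which the counting intervals do not cover. Between 15245935 and 24278662 reads fell on genes, and 3 reads of a member were worth between 0.0202 FPKM, for NKD1 in PSPC1-Y523F/PTK6, and 0.235 FPKM, for DKK1 in Huh-7 with HGF. All 8 hepatocyte markers looked at were above 1 FPKM in both Huh-7 libraries, led by AFP and ALB, with summed levels of 26324 and 26101 FPKM. In SK-hep1 and Mahlavu cells ALB, TTR and FGB had 0 reads in every library, and SERPINA1, at 7.97 to 42.3 FPKM, was alone among the 8 in passing 1 FPKM. The 8 endothelial markers summed to at most 1.44 FPKM in those 8 libraries, and EMCN was at 0 in all 10. In Huh-7 the endothelial markers summed to 7.08 and 7.11 FPKM without and with HGF. PECAM1 had 5.31 and 4.12 FPKM there, and CDH5 had 0.894 and 1.82 FPKM. All 3 lines are labelled hepatocellular carcinoma, and most hepatocyte markers were absent or near 0 in SK-hep1 and Mahlavu.

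TCF factors bind the letters CTTTGAT or CTTTGTT. Sequences before the transcription start are shown for SP5, DKK1 and the second start of TCF7, all windows that hold a match. Windows without a match are not printed, among them those of RNF43, whose level also differed widely between libraries. RefSeq promoters on GRCh38.p14 were matched by symbol for 6 of the 10 members, with 10 start sites in all, and the 250 bases upstream of each were searched on both strands. The motifs share their first 5 letters and differ in the sixth, so they cannot match at the same position. Capitals mark the match, which is given 5′ to 3′ on the strand of the gene. The SP5 window is chr2:170715087-170715336 with CTTTGAT starting at position −109 from the start site, and the DKK1 window is chr10:52314031-52314280 with CTTTGTT at −76. The window of the second TCF7 start site is chr5:134123368-134123617 and holds AACAAAG, the reverse complement of CTTTGTT, at −50.
SP5: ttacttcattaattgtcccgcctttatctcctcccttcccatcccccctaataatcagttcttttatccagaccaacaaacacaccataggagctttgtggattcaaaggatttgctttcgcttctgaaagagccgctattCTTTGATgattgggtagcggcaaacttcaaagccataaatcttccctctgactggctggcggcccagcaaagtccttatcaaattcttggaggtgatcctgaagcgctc
DKK1: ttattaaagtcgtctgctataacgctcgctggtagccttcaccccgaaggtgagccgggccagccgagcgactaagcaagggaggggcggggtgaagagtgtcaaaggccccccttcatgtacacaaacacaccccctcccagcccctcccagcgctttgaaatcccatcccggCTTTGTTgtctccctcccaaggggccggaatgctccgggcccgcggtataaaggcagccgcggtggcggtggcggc
TCF7, second start: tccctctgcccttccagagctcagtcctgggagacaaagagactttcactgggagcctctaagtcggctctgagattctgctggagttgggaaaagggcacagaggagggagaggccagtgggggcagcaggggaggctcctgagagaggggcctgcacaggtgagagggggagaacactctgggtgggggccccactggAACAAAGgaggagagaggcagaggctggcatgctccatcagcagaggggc
The GC content was 45.6% in the SP5 window, 62.8% in the DKK1 window and 62% in the TCF7 window, against a median of 58% over all RefSeq promoters. A match also stood in the window of a second TCF7L2 start site, at −133, so 4 of the 10 start sites held one of the motifs. Of 35116 promoters of this length, 2.26% held CTTTGAT, 4.50% held CTTTGTT and 6.60% held either. The windows of the first TCF7 start, of LEF1 and of RNF43 held neither, which says only that these letters are not in those windows. A match is a description of the sequence and not evidence of binding in these cells.

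The RNA levels of the TCF factors differed. TCF7L2 (chromosome 10, 112950250 to 113167678, GRCh38, as are the positions that follow), a TCF factor expressed widely in epithelia, was the highest of TCF7, TCF7L2 and LEF1 in all 10 libraries. TCF7L1, the remaining TCF factor and not one of the 10 members, stood above it in all 5 SK-hep1 libraries, at 23.7 to 61.8 FPKM, and below it in Mahlavu (3.17 to 3.76 FPKM) and Huh-7 (9.71 and 11.97 FPKM). The level of TCF7L2 was 12.5, 11.4, 10.5, 13.2 and 17.6 FPKM in SK-hep1 mock, PSPC1, PSPC1/PTK6, PSPC1-Y523F and, last, PSPC1-Y523F/PTK6. It was 9.32, 8.64 and 6.92 FPKM in Mahlavu mock, PSPC1-CT131 and Mut-NLS-CT131, and 23.2 and 21.4 FPKM in Huh-7 without and with HGF. For TCF7L2, Huh-7 thus stood above all other libraries, and PSPC1-Y523F/PTK6 above the other SK-hep1 libraries, with intervals that did not overlap (16.3 to 18.9 FPKM against at most 14.5 FPKM for PSPC1-Y523F).

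TCF7 (chromosome 5, 134114711 to 134151865), first known as a T cell factor, differed between libraries of the same line. It had 1.38 FPKM in SK-hep1 mock (1.01 to 1.86, from 44 reads), 0.304 FPKM in PSPC1 (0.139 to 0.576, 9 reads) and 0.943 FPKM in PSPC1/PTK6 (0.649 to 1.32, 33 reads). It had 0.679 FPKM in PSPC1-Y523F (0.420 to 1.04, 21 reads) and 2.25 FPKM in PSPC1-Y523F/PTK6 (1.78 to 2.80, 80 reads). The SK-hep1 libraries therefore ran from PSPC1, the lowest, to PSPC1-Y523F/PTK6, the highest, and the interval of each overlapped that of its neighbour. The interval of PSPC1 did not overlap those of mock, PSPC1/PTK6 and PSPC1-Y523F/PTK6. Overlap does not by itself mean equal levels. The ratio of read rates of PSPC1-Y523F/PTK6 to mock was 1.62, with an interval above 1 (1.11 to 2.40). In Mahlavu cells it had 1.02 FPKM in mock (0.708 to 1.43, 34 reads), 4.86 FPKM in PSPC1-CT131 (4.09 to 5.73, 141 reads) and 3.22 FPKM in Mut-NLS-CT131 (2.59 to 3.95, 90 reads), so that all 3 were apart. Huh-7 had 6.96 FPKM without and 6.22 FPKM with HGF, with overlapping intervals.

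LEF1 (chromosome 4, 108047545 to 108168956), the TCF factor best known from lymphocytes and hair follicles, had 2 reads in SK-hep1 mock, 1 in PSPC1-Y523F and 0 in the other 3 SK-hep1 libraries. In Mahlavu cells it had 1.78, 1.45 and 1.06 FPKM in mock, PSPC1-CT131 and Mut-NLS-CT131, from 48, 34 and 24 reads. Huh-7 had 0.566 and 0.332 FPKM without and with HGF, from 11 and 6 reads. LEF1 was thus highest in Mahlavu, although the intervals of both fragment libraries overlapped that of untreated Huh-7 and that of Mut-NLS-CT131 also overlapped Huh-7 with HGF, and it was not detectable at this depth in 3 SK-hep1 libraries, where 3 reads would have given at most 0.125 FPKM.

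AXIN2 and NKD1, 2 feedback inhibitors read widely as reporters of β-catenin activity, were low in SK-hep1 and Mahlavu and highest in Huh-7. AXIN2 (chromosome 17, 65528563 to 65561647) had 9, 5, 5, 6 and 0 reads in the SK-hep1 libraries in the order above, at most 0.231 FPKM. It had 0.516, 0.563 and 0.555 FPKM in the Mahlavu libraries, from 21, 20 and 19 reads, and 1.87 and 1.75 FPKM in Huh-7 without and with HGF, from 55 and 48 reads. NKD1 (chromosome 16, 50548330 to 50649249) had 10, 3, 4, 1 and 0 reads in SK-hep1 and 9, 2 and 0 reads in Mahlavu, against 1.95 FPKM from 195 reads in untreated Huh-7 and 1.44 FPKM from 134 reads with HGF. PSPC1-Y523F/PTK6 was the library without a read of either gene. Set against a floor of 3 reads, AXIN2 was at least 3.36-fold and NKD1 at least 3.73-fold lower there than in SK-hep1 mock. These floors leave out the counting error of the 9 and 10 mock reads, and the exact intervals allow 2.21-fold for AXIN2 and 2.51-fold for NKD1.

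RNF43, ZNRF3 and LGR5, which together set how many Frizzled receptors stay on the membrane, were all highest in Huh-7. RNF43 (chromosome 17, 58352500 to 58417595) had 1 read in SK-hep1 mock and 0 in the other 4 SK-hep1 libraries. It had 0.587, 0.967 and 1.12 FPKM in Mahlavu mock, PSPC1-CT131 and Mut-NLS-CT131 (41, 59 and 66 reads) and 10.9 and 12.4 FPKM in Huh-7 without and with HGF (548 and 583 reads). ZNRF3 (chromosome 22, 28883592 to 29057487), its closest relative, was above 1 FPKM in every library. Its level in SK-hep1 mock, PSPC1, PSPC1/PTK6, PSPC1-Y523F and, last, PSPC1-Y523F/PTK6 was 2.84, 2.29, 2.25, 4.15 and 1.87 FPKM, in Mahlavu mock, PSPC1-CT131 and Mut-NLS-CT131 3.56, 4.53 and 3.14 FPKM, and in Huh-7 13.3 and 13.4 FPKM. SK-hep1 thus held ZNRF3 reads with next to no RNF43 reads. LGR5 (chromosome 12, 71439770 to 71586310), a marker of stem cells in the intestine, had at most 4 reads in an SK-hep1 library, 0 in all 3 Mahlavu libraries, and 3.75 and 3.51 FPKM in Huh-7 from 154 and 134 reads.

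DKK1 (chromosome 10, 52314296 to 52318042), the secreted LRP blocker, was the highest of the 10 in all SK-hep1 and Huh-7 libraries and in no Mahlavu library. It had 151, 95.1, 207, 78.5 and 99.0 FPKM in SK-hep1 mock, PSPC1, PSPC1/PTK6, PSPC1-Y523F and, last, PSPC1-Y523F/PTK6, from 1386 reads or more. It had 6.85 FPKM in Mahlavu mock (5.72 to 8.13, 130 reads), 1.15 FPKM in PSPC1-CT131 (0.690 to 1.79, 19 reads) and 0.501 FPKM in Mut-NLS-CT131 (0.216 to 0.987, 8 reads). Huh-7 had 161 FPKM without and 133 FPKM with HGF. PSPC1/PTK6 thus stood highest in SK-hep1, and both fragment libraries stood below Mahlavu mock without overlap of the intervals.

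SP5 (chromosome 2, 170715351 to 170718078), which acts on further Wnt target genes, was the highest of the 10 in all 3 Mahlavu libraries. Its levels were 18.4 FPKM in Mahlavu mock (16.8 to 20.1), 28.5 FPKM in PSPC1-CT131 (26.3 to 30.8) and 18.7 FPKM in Mut-NLS-CT131 (16.9 to 20.6). In SK-hep1 mock, PSPC1, PSPC1/PTK6, PSPC1-Y523F and, last, PSPC1-Y523F/PTK6 it had 7.45, 11.4, 8.82, 6.01 and 7.55 FPKM, and in Huh-7 9.12 and 8.76 FPKM. Huh-7 thus lay within the range of the SK-hep1 libraries, and Mahlavu lay above both lines.

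**Figure D1:**
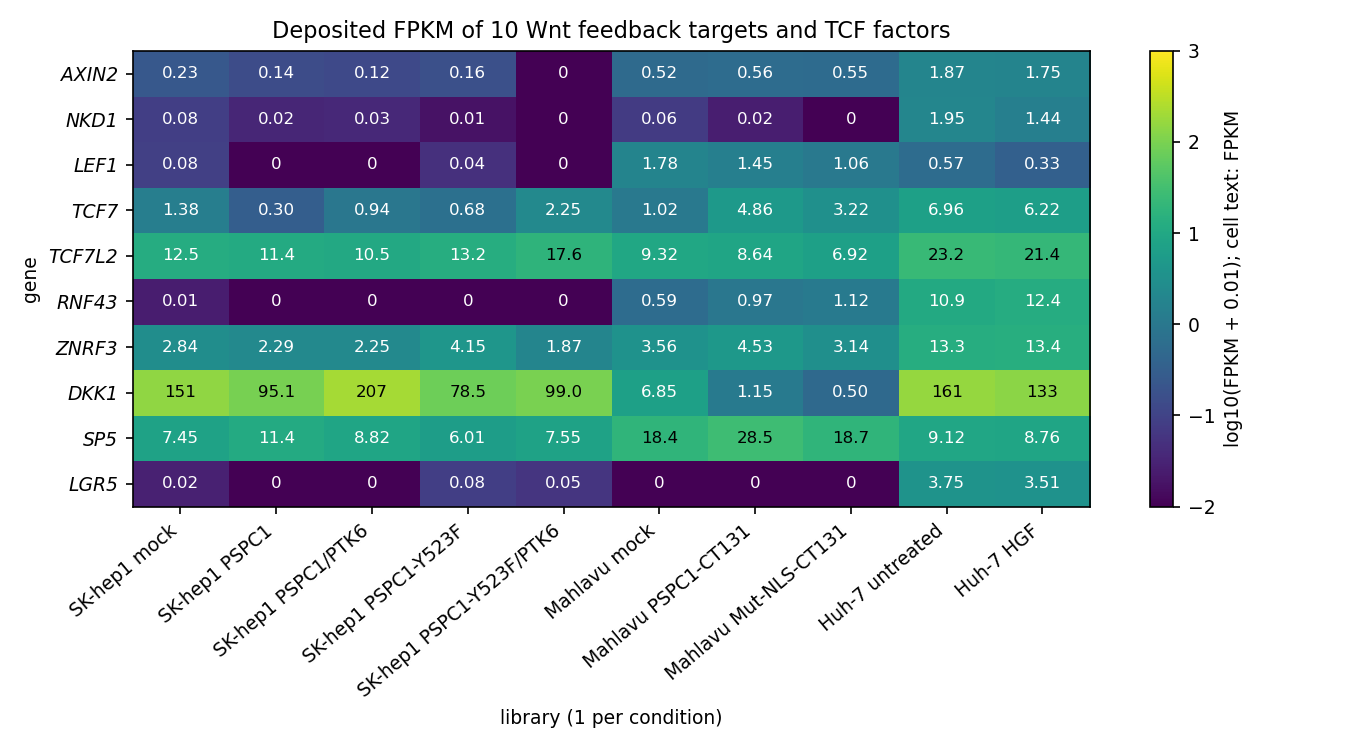
Deposited FPKM of the 10 members (rows) in the 10 libraries (columns), with color on a log10 scale after adding 0.01 and the FPKM printed in each cell. AXIN2, NKD1, RNF43 and LGR5 are at or near 0 in the SK-hep1 columns and highest in the Huh-7 columns, while DKK1 is 151 FPKM in SK-hep1 mock and 6.85 FPKM in Mahlavu mock.

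Read within a library, the order of the members changed with the cell line. In SK-hep1 mock it was DKK1, TCF7L2, SP5, ZNRF3 and TCF7 down to 1 FPKM, each apart from its neighbour, and the 5 members below that had 10 reads or fewer, with intervals that all overlapped those of their neighbours. In the SK-hep1 libraries with PSPC1 and with PSPC1/PTK6 the intervals of TCF7L2 and SP5 overlapped, and in PSPC1-Y523F/PTK6 those of TCF7 and ZNRF3. In Mahlavu mock the order ran SP5, TCF7L2, DKK1, ZNRF3, LEF1 and TCF7, and the intervals of LEF1 and TCF7 overlapped. DKK1 dropped from place 3 there to place 6 in PSPC1-CT131 and place 8 in Mut-NLS-CT131, and TCF7 took place 3 in both. The intervals of TCF7 and ZNRF3 overlapped in both fragment libraries, as did those of DKK1 with LEF1 and RNF43 in PSPC1-CT131 and with AXIN2 in Mut-NLS-CT131, so these places are not set beyond counting error. In untreated Huh-7 the order was DKK1, TCF7L2, ZNRF3, RNF43, SP5, TCF7, LGR5, NKD1, AXIN2 and LEF1, where RNF43 and SP5, SP5 and TCF7, and NKD1 and AXIN2 overlapped. At 1 FPKM or more stood 5 members in SK-hep1 mock, 6 in Mahlavu mock and 9 in untreated Huh-7.

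Between the lines without an added gene, untreated Huh-7 exceeded SK-hep1 mock in the read rate of AXIN2 by 8.09-fold (3.97 to 18.6), of NKD1 by 25.8-fold (13.7 to 54.7), of ZNRF3 by 4.68-fold (4.07 to 5.40) and of TCF7 by 5.02-fold (3.59 to 7.17). For RNF43 and LGR5, each with 1 read in SK-hep1 mock, the ratios were 725 and 204, with intervals from 130 and from 36.1 upward. TCF7L2 differed by 1.85-fold (1.64 to 2.09), DKK1 by 1.06-fold (1.00 to 1.12) and SP5 by 1.22-fold (0.988 to 1.51). Against Mahlavu mock, untreated Huh-7 had 18.5-fold more RNF43 (13.5 to 26.1), 30.0-fold more NKD1 (15.5 to 66.6), 23.5-fold more DKK1 (19.7 to 28.2), 3.63-fold more AXIN2 (2.16 to 6.32) and, against a floor of 3 reads, at least 71.1-fold more LGR5, where the exact interval began at 57.1. SP5 and LEF1 went the other way, with ratios of 0.497 (0.415 to 0.593) and 0.317 (0.149 to 0.620) of Huh-7 to Mahlavu. CTNNB1, the gene of β-catenin itself, was 438 FPKM in untreated Huh-7, 174 FPKM in SK-hep1 mock and 111 FPKM in Mahlavu mock. Each line is represented here by 1 such library. Huh-7 was untreated where the other lines were mock controls, and its tables were deposited without read counts. Differences of line therefore cannot be told apart from differences of handling.

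**Figure D2:**
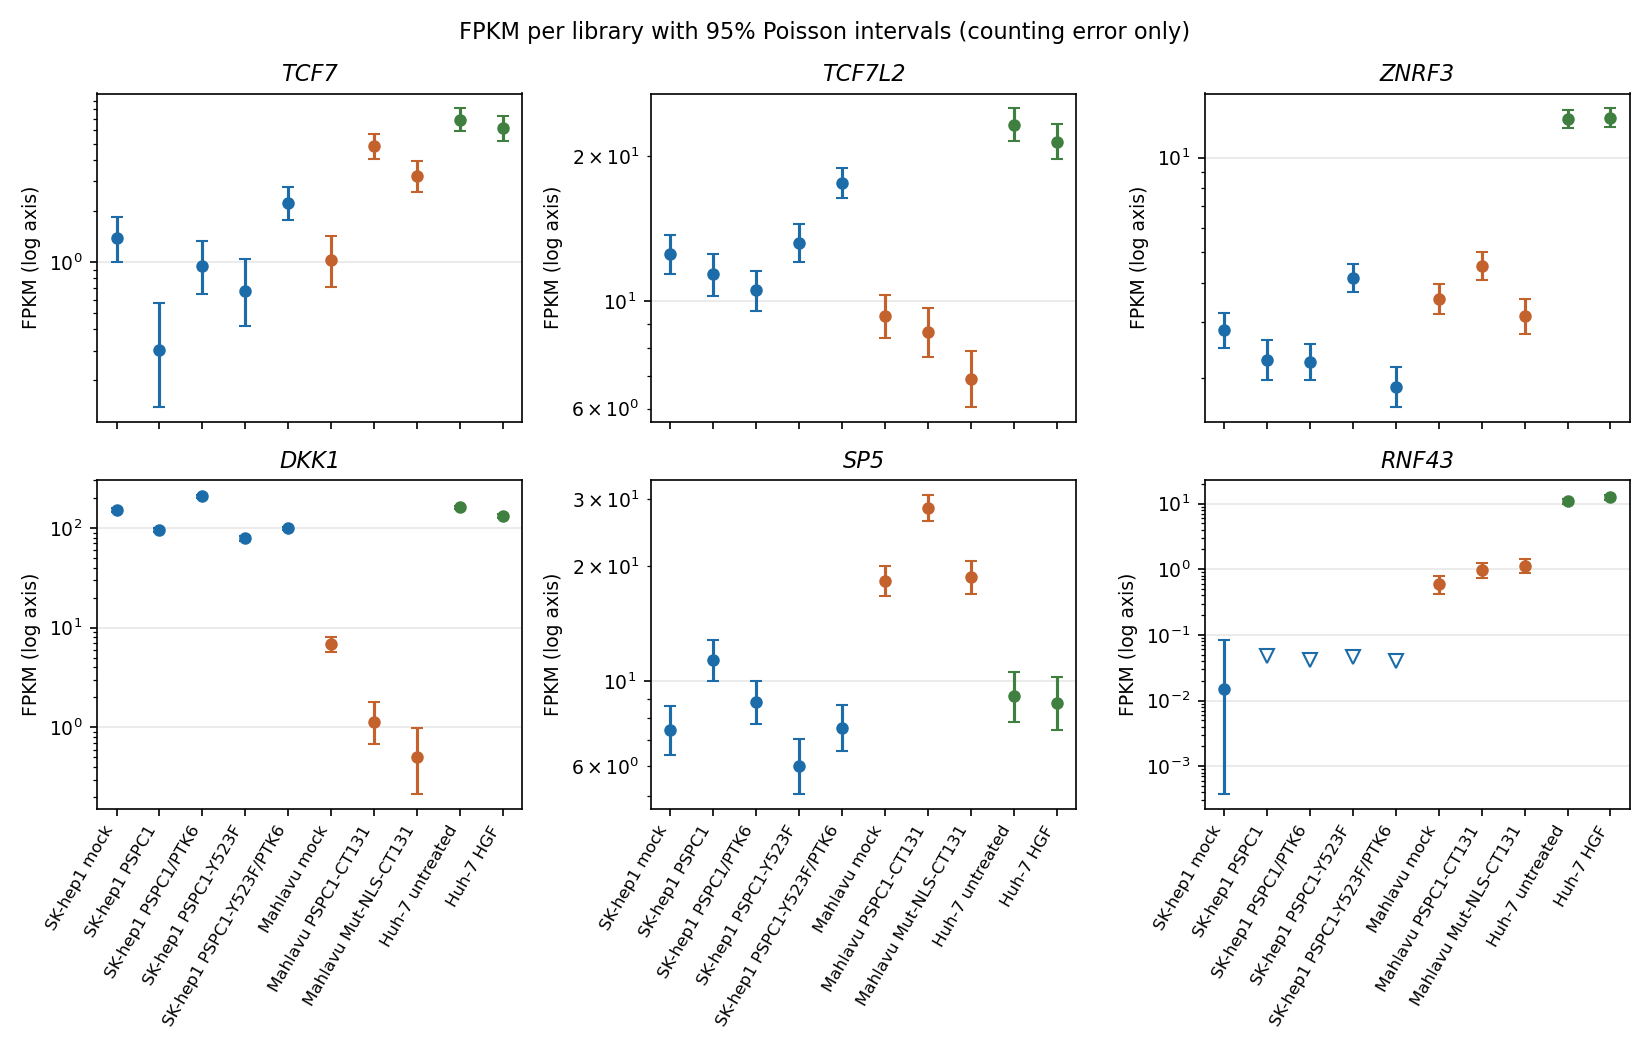
Deposited FPKM (log axis) of 6 members in each library, with bars for 95% exact Poisson intervals that cover counting error only; colors stand for the cell line, and an open triangle marks 0 reads, drawn at the level of 3 reads. TCF7 is lowest in SK-hep1 PSPC1 (0.304 FPKM), DKK1 is lowest in the Mahlavu fragment libraries, and RNF43 separates the lines, from at most 1 read in SK-hep1 to 10.9 FPKM in untreated Huh-7.

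For the comparisons, FPKM were quantile normalized, 1 was added, and the log2 fold change between the libraries was taken for each gene whose mean was 1 FPKM or more. A difference of at least 2-fold, in either direction, was counted. The ratio of read rates, from the reads as deposited, is given beside it with its 95% interval. Members under that level are given by their reads. With 4 to 9 members above that level in a comparison, a share of members is too coarse to be set against the share of all genes, and both are given as a description.

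With PSPC1 against SK-hep1 mock, 1 of 5 members was at least 2-fold lower, against 5.58% of 12411 genes that differed 2-fold in either direction. That member was TCF7, at a log2 fold change of −1.001, right at the threshold. Its read rate was 4.56-fold lower (2.20 to 10.6), and the smaller log2 value follows from the 1 added to low levels. DKK1 was lower without reaching 2-fold (log2 fold change −0.60, ratio of read rates 0.629, 0.591 to 0.669). SP5 was higher (0.57, ratio 1.52, 1.26 to 1.85), ZNRF3 was slightly lower (−0.20, ratio 0.806, 0.665 to 0.976), and TCF7L2 had −0.06 with a ratio whose interval included 1 (0.908, 0.792 to 1.04). The median over the 5 members was −0.20, and over all genes −0.03. With FPKM as deposited or normalized within SK-hep1 alone, the mean of TCF7 was under 1 FPKM and it was not counted, and with 5 added in place of 1 its log2 fold change was −0.33.

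With PSPC1/PTK6 against mock, none of 5 members differed by 2-fold, and 8.41% of 12436 genes did. DKK1 was higher (log2 fold change 0.50, ratio 1.37, 1.31 to 1.44), and TCF7, ZNRF3 and TCF7L2 had −0.61, −0.56 and −0.45. The interval of the TCF7 ratio included 1 (0.681, 0.420 to 1.09), and those of ZNRF3 (0.793, 0.660 to 0.954) and TCF7L2 (0.841, 0.736 to 0.961) did not. SP5 had −0.05 after quantile normalization but a ratio of 1.18 (0.972 to 1.44) as deposited, so its direction depended on the scaling. The median of all genes, −0.04 after quantile normalization, was 0.15 with FPKM as deposited.

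Set directly against PSPC1, PSPC1/PTK6 had 1 of 4 members at least 2-fold higher, beside 4.96% of 12391 genes. It was DKK1, from 95.1 to 207 FPKM, with a log2 fold change of 1.10 and a ratio of 2.18 (2.06 to 2.31). With read counts scaled by the TMM method the log2 fold change was 0.90, and with length and GC content taken out 0.96, both under 2-fold. Genes poorer in GC had higher log2 fold changes in this comparison, with a Spearman correlation across genes of −0.308. DKK1, at 43.5%, had the lowest GC content of the members. SP5 was lower (−0.62, ratio 0.776, 0.649 to 0.928), and ZNRF3 (−0.37) and TCF7L2 (−0.39) had ratios of 0.984 and 0.926 with intervals around 1. TCF7 was too low on average to be counted, but its read rate was 3.11-fold higher (1.45 to 7.38), from 9 to 33 reads.

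With PSPC1-Y523F against mock, none of 5 members differed by 2-fold, beside 5.29% of 12382 genes. DKK1 came nearest, at −0.87 and a read rate 1.93-fold lower (1.80 to 2.06). ZNRF3 was higher (0.53, ratio 1.47, 1.24 to 1.73), and TCF7 was lower by −0.54 with a ratio of 0.491 (0.277 to 0.843). SP5 (−0.16) and TCF7L2 (0.15) had intervals of the ratio that included 1. The median of the members was −0.16, and of all genes −0.01.

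With PSPC1-Y523F/PTK6 against mock, again none of 5 members differed by 2-fold, and 5.03% of 12412 genes did. TCF7 and TCF7L2 were both higher, with log2 fold changes of 0.53 and 0.56 and ratios of 1.62 (1.11 to 2.40) and 1.40 (1.25 to 1.58). DKK1 (−0.53, ratio 0.655, 0.618 to 0.694) and ZNRF3 (−0.32, ratio 0.661, 0.544 to 0.801) were lower, and SP5 (0.13, ratio 1.01, 0.828 to 1.24) was not apart from mock. With length and GC content taken out, SP5 had −0.23, so its direction depended on that step. Against PSPC1-Y523F alone, 1 of 5 members was at least 2-fold higher, beside 5.98% of 12398 genes. This was TCF7, at 1.07, with 21 reads in PSPC1-Y523F and 80 with PTK6 added, a 3.31-fold higher read rate (2.03 to 5.63). ZNRF3 came just short of 2-fold on the log2 scale, at −0.85, although its read rate was 2.22-fold lower (1.85 to 2.66). TCF7L2, DKK1 and SP5 had 0.41, 0.34 and 0.29, each with an interval of the ratio above 1. As deposited, the log2 fold change of TCF7 was 0.95, and with 5 added 0.44.

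The 4 SK-hep1 comparisons with mock share that library, and both comparisons with PTK6 added use libraries of those 4. Side by side, DKK1 had −0.60, 0.50, −0.87 and −0.53 against mock with PSPC1, PSPC1/PTK6, PSPC1-Y523F and, last, PSPC1-Y523F/PTK6, so PSPC1/PTK6 was the library above mock. TCF7 had −1.001, −0.61, −0.54 and 0.53, and PSPC1-Y523F/PTK6 was the library above mock. In both pairs of libraries, the one with PTK6 had more TCF7 and more DKK1 reads than its partner, with ratios of 3.11 and 3.31 for TCF7 and 2.18 and 1.26 for DKK1. The libraries with PTK6 also had more PSPC1 than their partners (26.4 against 7.01 and 70.9 against 2.28 FPKM). Differences within a pair therefore cannot be assigned to PTK6 or to the amount of PSPC1.

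In Mahlavu cells, 2 of 6 members differed by 2-fold in the library labelled PSPC1-CT131 against mock, beside 6.33% of 12415 genes. TCF7 was higher, at a log2 fold change of 1.82 and a 4.75-fold higher read rate (3.25 to 7.13). DKK1 was lower, at −1.49 and a 5.97-fold lower read rate (3.67 to 10.2). SP5, just under the threshold, had 0.92 with a ratio of 1.55 (1.38 to 1.75), and ZNRF3 had 0.70 with a ratio of 1.27 (1.09 to 1.48). TCF7L2 (0.28) and LEF1 (0.14) were higher after quantile normalization but lower as deposited, with ratios of 0.927 (0.792 to 1.08) and 0.811 (0.507 to 1.29). The median of all genes was 0.01 after quantile normalization and −0.23 with FPKM as deposited.

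In this library genes richer in GC had higher log2 fold changes. The Spearman correlation with the GC content of the longest transcript, known for 99.9% of the 12415 genes, was 0.566, a description across genes that are not independent of each other. SP5 had the highest GC content of the 10 members (66.2%), TCF7 had 54.9%, ZNRF3 53.5% and DKK1 43.5%, the lowest, against a median of 48.6% over the genes tested. Once gene length and GC content were taken out, TCF7 had 1.57 and DKK1 −1.28, both still past 2-fold, while SP5 went from 0.92 to 0.55 and ZNRF3 from 0.70 to 0.46. A trend with GC content was present in SK-hep1 as well, and weaker. Against mock the correlation was 0.181 with PSPC1, −0.086 with PSPC1/PTK6, 0.247 with PSPC1-Y523F and 0.254 with PSPC1-Y523F/PTK6.

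The Mut-NLS-CT131 library, so labelled, had 2 of 5 members past 2-fold against mock, again TCF7 and DKK1, beside 6.42% of 12425 genes. TCF7 had 1.13, with a 3.15-fold higher read rate (2.10 to 4.82), and DKK1 had −2.06, with a 13.7-fold lower read rate (6.74 to 32.3). SP5 (0.13, ratio 1.02, 0.891 to 1.17) and ZNRF3 (0.07, ratio 0.883, 0.746 to 1.04) were not apart from mock, and TCF7L2 was lower (−0.26, ratio 0.742, 0.626 to 0.879). With 5 in place of 1 added to each value, neither TCF7 (0.79 and 0.43) nor DKK1 (−0.69 and −0.86) reached 2-fold in PSPC1-CT131 or Mut-NLS-CT131, since their levels are low. Both comparisons share the mock library.

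When both fragment libraries were set against each other, none of 5 members differed by 2-fold, and 8.82% of 12453 genes did. All 5 were higher in PSPC1-CT131, with a median of 0.63 and SP5 (0.79, ratio 1.52, 1.34 to 1.73) in front, ahead of TCF7 (0.69, ratio 1.51, 1.15 to 1.99) and ZNRF3 (0.63, ratio 1.44, 1.22 to 1.70). GC-rich genes again had the higher values, with a Spearman correlation across genes of 0.574, and with length and GC content taken out SP5 had 0.38, TCF7 0.40 and ZNRF3 0.36. DKK1 rested on 19 and 8 reads, and its ratio of 2.29 had an interval that included 1 (0.957 to 6.04).

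In Huh-7 cells, none of 9 members differed by 2-fold with HGF, and 0.82% of 14262 genes did. The members lay between −0.30 for NKD1 and 0.19 for RNF43, with a median of −0.10 and of −0.00 over all genes. NKD1 was lower (ratio 0.738, 0.588 to 0.924) and so was DKK1 (0.828, 0.777 to 0.882), while RNF43 was higher (1.14, 1.02 to 1.29). For AXIN2 (0.937, 0.623 to 1.41), TCF7 (0.894, 0.709 to 1.13), LGR5 (0.935, 0.736 to 1.19), TCF7L2, ZNRF3 and SP5 the interval included 1. The interval of AXIN2 does not leave room for a 2-fold change from counting error alone.

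**Figure D3:**
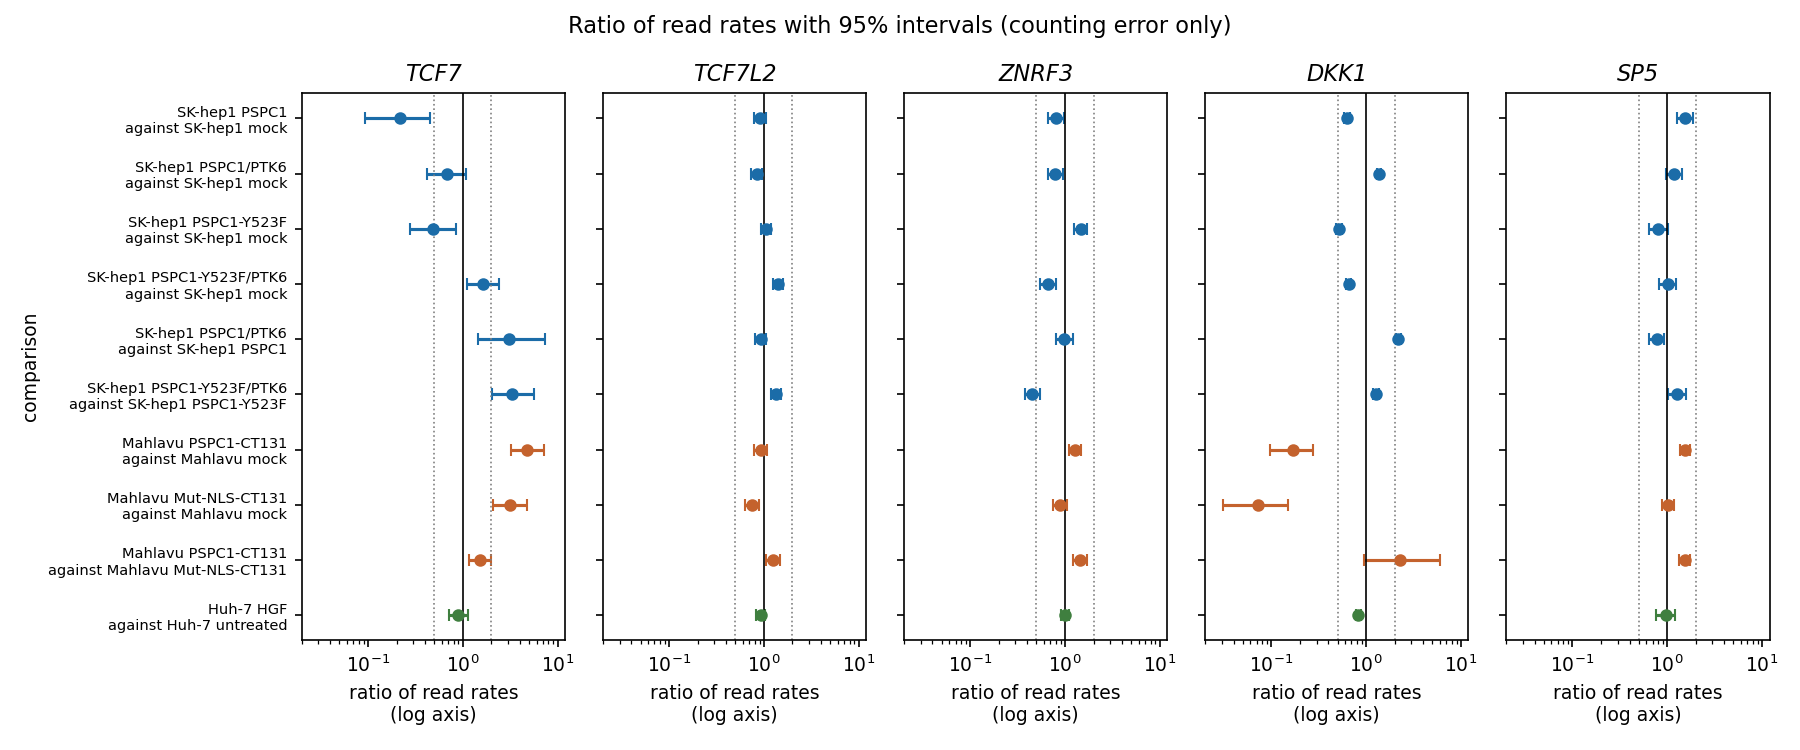
Ratio of read rates (log axis, from reads as deposited) of 5 members in the 10 comparisons, with bars for 95% exact intervals that cover counting error only; the solid line marks no difference and dotted lines mark 2-fold. TCF7 is above 2 in both Mahlavu fragment libraries (4.75 and 3.15) and at 0.219 with PSPC1, DKK1 is at 0.167 and 0.0731 in those Mahlavu libraries, and TCF7L2 and SP5 stay within 2-fold throughout.

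The other genes of the pathway were read as 6 lists with 97 genes in all. Among 21 Wnt ligands and secretion factors, WNT7B, a ligand of epithelia, was at least 2-fold higher than SK-hep1 mock in the PSPC1-Y523F/PTK6, PSPC1-Y523F and PSPC1 libraries and not in PSPC1/PTK6. Its levels were 0.335 FPKM in mock, 3.33 with PSPC1, 0.413 with PSPC1/PTK6, 3.25 with PSPC1-Y523F and 7.24 with PSPC1-Y523F/PTK6. With PSPC1/PTK6 the ligand past 2-fold was WNT11, best known for signalling without β-catenin, from 1 to 96 reads (4.43 FPKM, log2 fold change 2.20). WNT5A, of the same kind, was higher in both libraries with PTK6 than in their partners, by log2 fold changes of 1.08 (1.14 to 4.57 FPKM) and 1.80 (1.09 to 5.91 FPKM). Of the 8 ligands tested against mock in SK-hep1, 1 or 2 passed 2-fold in each comparison, all higher. Over all genes 5.58%, 8.41%, 5.29% and 5.03% passed 2-fold in either direction with PSPC1, PSPC1/PTK6, PSPC1-Y523F and, last, PSPC1-Y523F/PTK6. Lists this short are too coarse to be set against those shares.

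Among 16 secreted or membrane inhibitors besides DKK1, DKK3, a relative of DKK1, was at least 2-fold higher than mock in all 4 SK-hep1 transfectants, at 106 to 229 FPKM against 44.5 FPKM. SFRP1, which binds Wnt proteins, was 49.5 FPKM in mock. It was 103 and 117 FPKM in PSPC1 and PSPC1-Y523F but 23.3 and 32.3 FPKM in their partners with PTK6. Those partners also had more PSPC1. NKD2, the relative of NKD1, was 8.77 FPKM in mock, 3.75 with PSPC1, 11.8 with PSPC1/PTK6, 3.27 with PSPC1-Y523F and 0.758 with PSPC1-Y523F/PTK6, and the last 2 were past 2-fold. Of 6 inhibitors tested against mock, PSPC1 had 2 at least 2-fold higher and 0 lower, PSPC1/PTK6 had 1 higher and 1 lower, PSPC1-Y523F had 2 higher and 1 lower, and PSPC1-Y523F/PTK6 had 1 higher and 2 lower. The shares of all genes past 2-fold in these comparisons were 5.58%, 8.41%, 5.29% and 5.03%. Among 18 receptors and R-spondin genes, FZD8 was lower with PSPC1 and PSPC1/PTK6 (2.27 and 2.65 FPKM against 8.26 FPKM). With PSPC1/PTK6 2 receptors were higher, FZD6 from 0.514 to 4.47 FPKM (log2 fold change 1.53) and FZD4 from 0.287 to 2.09 FPKM (1.01). LGR4, the relative of LGR5 that was present in SK-hep1, was 2.87 FPKM in mock, 0.899 with PSPC1 and 0.363 with PSPC1-Y523F. It was 2.20 and 3.41 FPKM in their partners with PTK6.

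Among 16 other β-catenin targets, 3 of the 9 tested were at least 2-fold lower with PSPC1 and none higher, with a median log2 fold change of −0.65 against −0.03 over all genes. They were JAG1, a Notch ligand, from 2.41 to 0.240 FPKM, TBX3, a T-box transcription factor, from 42.4 to 16.6 FPKM, and CCND1, the cell cycle protein cyclin D1, from 392 to 180 FPKM. With PSPC1/PTK6 it was TBX3, CCND1 and SOX9 that were lower, 3 of 9, and with PSPC1-Y523F/PTK6 JAG1 and TBX3, 2 of 9. With PSPC1-Y523F none of 9 passed 2-fold, and the median was −0.32. Over all genes 5.58% passed 2-fold in either direction with PSPC1, 8.41% with PSPC1/PTK6, 5.29% with PSPC1-Y523F and 5.03% with PSPC1-Y523F/PTK6. Set against PSPC1, PSPC1/PTK6 had 3 of 9 at least 2-fold higher, BAMBI, JAG1 and CD44, beside 4.96% of all genes in either direction. Set against PSPC1-Y523F, PSPC1-Y523F/PTK6 had 0 of 8 past 2-fold, with a median of −0.10, beside 5.98% of all genes. Both libraries with PTK6 also had more PSPC1 than their partners. The 13 genes of the destruction complex were all tested, and APC2 alone among them passed 2-fold against mock, at 12.8 and 12.6 FPKM with PSPC1 and PSPC1/PTK6 against 29.2 FPKM. CTNNB1 itself stayed between 140 and 174 FPKM in SK-hep1. Of 13 nuclear cofactors none passed 2-fold against mock in SK-hep1, and TCF7L1 was 55.0 FPKM in PSPC1-Y523F/PTK6 against 23.7 FPKM in PSPC1-Y523F (log2 fold change 1.15).

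**Figure D4:**
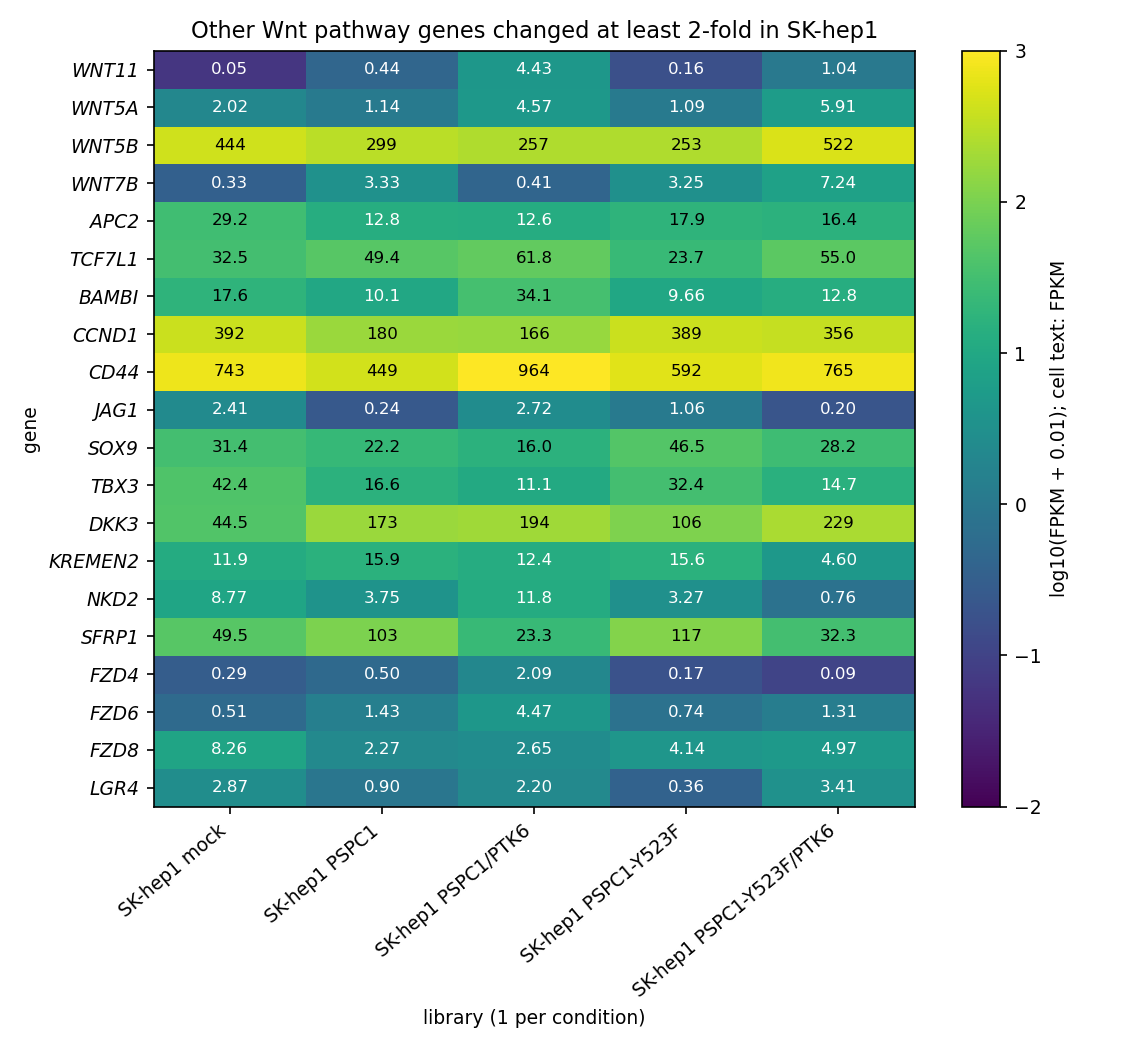
Deposited FPKM in the 5 SK-hep1 libraries of the other Wnt pathway genes that differed at least 2-fold in a SK-hep1 comparison, at most 3 per list and comparison; color is on a log10 scale after adding 0.01, and FPKM is printed in each cell. WNT7B is near mock in PSPC1/PTK6 (0.413 FPKM) and higher in the other 3 transfectants, and SFRP1 is lower in both libraries with PTK6 than in their partners.

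In the Mahlavu library labelled PSPC1-CT131, 8 of 57 pathway genes tested were at least 2-fold higher than mock and none lower, beside 394 higher and 392 lower of 12415 genes. Among them were 4 of 9 ligands, led by WNT7B (3.50 to 10.1 FPKM), WNT9A (2.61 to 7.91 FPKM) and WNT6 (69.5 to 174 FPKM) and completed by WNT10A (7.74 to 14.8 FPKM, named after its value was seen), and also SOX9, the ligand-inactivating enzyme NOTUM, the corepressor TLE2 and CTNNBIP1, which binds β-catenin in place of TCF factors. Once gene length and GC content were taken out this number was 4, and with FPKM as deposited 5. In Mut-NLS-CT131 2 of 57 pathway genes passed 2-fold, beside 6.42% of 12425 genes. They were WNT6 (149 FPKM), which was higher, and the acetyltransferase CREBBP (31.7 against 70.2 FPKM), which was lower. In Huh-7 with HGF none of 60 pathway genes passed 2-fold, beside 0.82% of 14262 genes.

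TCF7 had the widest range of log2 fold changes over the 7 comparisons with mock or untreated cells, 2.83 from the lowest to the highest, followed by DKK1 with 2.56, among the 5 members with a mean of at least 1 FPKM in every cell line. ZNRF3 had 1.26, SP5 1.08 and TCF7L2 1.00. With 5 in place of 1 added, DKK1 spanned more (−0.86 to 0.49) than TCF7 (−0.33 to 0.79), so the choice of TCF7 for the search that follows depends on the added value. Over those 7 values the genes nearest to TCF7, by the root mean square difference, were ETV4 (0.39), an ETS transcription factor, then ANTXR2 (0.41), SOCS1 (0.42), DGKA (0.45) and RAC2 (0.47). ETV4 had −1.12, −0.89, −0.71 and −0.37 in the SK-hep1 transfectants in the order above, 1.53 and 1.37 in PSPC1-CT131 and Mut-NLS-CT131, and −0.14 with HGF. Like TCF7 it was lower with PSPC1 and higher in both Mahlavu fragment libraries, but it was not higher in PSPC1-Y523F/PTK6. All 5 genes were picked from 10359 for closeness over these 7 values, so their likeness to TCF7 there follows from the choice. How near the closest of so many genes would lie by chance was not tested. The 7 comparisons share mock libraries, so they are not independent points.

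Some members overlap other genes, and the library kit does not mark the strand of a read, so reads from shared bases cannot be assigned. TCF7 shares 210 of its 10063 exonic bases with SKP1 on the opposite strand, a gene with 839 to 1765 reads in the SK-hep1 and Mahlavu libraries. RNF43 shares 143 of 7505 bases with SUPT4H1, which had 141 to 392 reads there while RNF43 had at most 1 read in SK-hep1. The other overlapping genes that share exonic bases with AXIN2, NKD1, LEF1, TCF7L2, RNF43 or LGR5 had at most 5 reads in an SK-hep1 or Mahlavu library. Among them, TSPOAP1-AS1 shares 1521 bases with RNF43. Reads of overlapping genes in Huh-7 were not looked at.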

How the data were processed

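RNA of 10 cell line libraries was sequenced as paired-end reads. The deposited tables hold FPKM per gene for all 10 libraries, made by the authors, and read counts per gene, deposited by the authors for SK-hep1 and Mahlavu (8 libraries). The submitters' processing notes name TopHat2 2.0, HTSeq 0.6.1, edgeR and GRCh38.p12. The positions of all 10 members, and of 97.6% of 58039 shared genes, were those of GENCODE 29 on GRCh38. The labels describe poly-T beads and a kit that does not mark strand, whereas the study's methods describe ribosomal RNA depletion, so the RNA selection is uncertain. Left out were 8 lines without values in each table. For Huh-7, reads were recovered from FPKM and the gene lengths that the other 8 libraries gave, and 100% of these values came out whole within 0.01 read. Such a length was known for 22724 of 25838 genes above 0 FPKM in untreated Huh-7 and 22456 of 25346 with HGF. It was known for all 10 members, and genes without it, such as ALB, TTR and FGB, have no recovered reads.

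Libraries were grouped by their labels. FPKM were quantile normalized over the 8 SK-hep1 and Mahlavu libraries and over the 2 Huh-7 libraries, since the study's methods name quantile normalized FPKM. The log2 fold change of FPKM + 1 understates the change of low genes, and genes with a mean under 1 FPKM were not counted. With 1 library per condition no test was run. Levels have exact Poisson 95% intervals, and ratios of read rates exact conditional binomial (Clopper-Pearson) intervals. Reads had no molecular identifiers, so these cover counting error only. Where a library had 0 reads, 3 reads were taken as the floor. The members and gene lists were chosen with earlier results of these data known. Besides the members, PSPC1, PTK6 and CTNNB1, at most 3 genes past 2-fold were named per list and comparison, and the 5 genes nearest to the member with the widest range of fold changes. Alternatives covered scaling (deposited FPKM, equal sums, quantile normalization within a line, TMM from edgeR 4.0.16), the added value, the minimum level, and gene length with GC content. The scripts, checked on simulated data, used Python 3.11.15, pandas 2.3.3, scipy 1.17.1 and R 4.3.3.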

Additional observations from a re-analysis of the deposited data

How the results depend on the processing

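With 1 library per condition, the spread between cultures is unknown, and no library could be left out. No paired analysis was possible because no group has a second library. The log2 fold changes of low members depend on the value added to FPKM. Under the alternatives 151 counts stayed within 1.5 times the reported count and 35 did not, and no called value changed sign. The cause of the differences was not tested, except that adding 5 shrinks low genes and a mean of 5 FPKM leaves fewer genes.

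Members past 2-fold numbered 0 in place of 1 with PSPC1 against mock for deposited FPKM, normalization within each line, 5 added and a mean of 5 FPKM. With PSPC1/PTK6 against mock, 1 (TCF7) passed with 0.1 added. PTK6 added to PSPC1 gave 0 with TMM and with length and GC content taken out. PTK6 added to PSPC1-Y523F gave 0 for deposited FPKM, 5 added and a mean of 5 FPKM, and 2 (TCF7 and ZNRF3) with 0.1 added. PSPC1-CT131 and Mut-NLS-CT131 against mock gave 0 in place of 2 with 5 added and with a mean of 5 FPKM.

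Pathway genes past 2-fold, with 5 added, numbered 3 (of 9 reported) for PSPC1, 5 (of 10) for PSPC1/PTK6, 2 (of 5) for PSPC1-Y523F, 4 (of 7) for PSPC1-Y523F/PTK6, 3 (of 8) and 4 (of 8) for PTK6 added to PSPC1 and to PSPC1-Y523F, 2 (of 8) for PSPC1-CT131 and 2 (of 4) for PSPC1-CT131 against Mut-NLS-CT131. With a mean of 5 FPKM they numbered 3 for PSPC1-Y523F, 4 and 5 for PTK6 added to PSPC1 and to PSPC1-Y523F, and 5 for PSPC1-CT131. PSPC1-CT131 also gave 5 with deposited FPKM and with equal sums, and 4 with length and GC content taken out. Mut-NLS-CT131 gave 4 (of 2) with equal sums and with TMM and 5 with 0.1 added, and PSPC1-CT131 against Mut-NLS-CT131 gave 7 with TMM and with 0.1 added. TMM was not run for Huh-7, where counts were recovered and not used for scaling.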

Other observations

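The Wnt ligand list differed between the lines. The 21 genes of Wnt ligands and of their secretion (PORCN and WLS) summed to 364 to 638 FPKM in SK-hep1, 230 to 373 FPKM in Mahlavu and 26.2 and 25.2 FPKM in Huh-7 without and with HGF, the line with the highest AXIN2, NKD1, RNF43, ZNRF3 and LGR5. WNT5B, a ligand best known for signalling without β-catenin, made up most of the SK-hep1 sum, at 444 FPKM in mock, and was 66.7 FPKM in Mahlavu mock and 1.15 FPKM in untreated Huh-7. WNT3A, the ligand used most often to start the canonical pathway in culture, was at or below 0.0208 FPKM in all 10 libraries.

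Receptors and liver targets, named here after their values were seen, did not share 1 order of the lines. LGR4, the R-spondin receptor related to LGR5, was 175 FPKM in untreated Huh-7, 15.2 FPKM in Mahlavu mock and 2.87 FPKM in SK-hep1 mock. FZD2, a Frizzled receptor, ran the other way, at 1.82 FPKM in untreated Huh-7, 92.7 FPKM in Mahlavu mock and 172 FPKM in SK-hep1 mock, and FZD6 was highest in Mahlavu, at 19.5 FPKM in mock against 5.94 FPKM in untreated Huh-7 and 0.514 FPKM in SK-hep1 mock. GLUL, the glutamine synthetase of hepatocytes around the central vein, was 395 and 453 FPKM in Huh-7 without and with HGF, 48.2 to 52.8 FPKM in Mahlavu and at most 0.545 FPKM in SK-hep1. LECT2, a further liver target, was at 1.60 and 2.29 FPKM in Huh-7 and at 0 elsewhere. TBX3 was higher in SK-hep1 mock (42.4 FPKM) than in untreated Huh-7 (24.6 FPKM) and Mahlavu mock (9.22 FPKM), and OAT, ornithine aminotransferase, was 90.0, 71.5 and 89.4 FPKM in the same order.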
